A study of Homo sapiens with 12 samples.

Results

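Forced expression of TAp63 was compared with a mock control in AsPC-1, an established human line derived from a pancreatic adenocarcinoma. All genes that could be tested were included: the comparison used 4 of the 12 libraries of the study, and 14767 genes of the 39099 with a summed value. Both AsPC-1 groups, mock and TAp63, held 2 libraries, which the labels number as replicates. The other 8 libraries were AsPC-1 with deltaNp63 and PANC-1, a second established pancreatic cancer line, with mock, TAp63 or deltaNp63. The vector, the time after transfection or transduction and the use of selection or single clones are not given in the labels, and nothing states that the replicates came from separate cultures. The p-values therefore measure only the spread between these libraries, which may be technical.

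TP63 encodes a transcription factor of the p53 family and has a pair of promoters. The upstream one gives the TA proteins, which carry an N-terminal transactivation domain, and the internal one gives the deltaN proteins, which lack it and are known as the main p63 form of squamous and basal epithelium. Type I and type III interferons, the second including the lambda interferons, bind separate receptors and signal through the kinases JAK1 and TYK2 to a complex that includes STAT2 and IRF9. That complex switches on antiviral genes such as the OAS, IFIT and MX families through an element built from GAAA repeats, the interferon-stimulated response element, in their promoters.

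Interferon-stimulated genes made up most of what fell in AsPC-1 with TAp63. Of the 90 genes that fell, 51 stood in lists of interferon ligands, signalling components and effectors, which held 99 of the 14767 tested genes. The fall extended to the lambda interferons and to STAT2. Few genes rose. TP63 itself and 3 others passed the test in that direction. The promoters below show the GAAA pair that many of the fallen genes carried near their start. Windows from 250 bases before to 50 bases after each RefSeq start were available, on GRCh38.p14, for 61 of the 90 fallen genes and for 3 of the 4 that rose. The pattern GAAA, any 2 bases, GAAA, searched on both strands, occurred in 34 of those 61 genes (55.7%), against 418 of 10824 tested genes with a window (3.86%). Counted by window, 39 of 83 windows of fallen genes held a match (47%), against 445 of 15709 windows of tested genes (2.83%). Over all 35116 windows of 300 bases, genes not tested included, 1255 held a match (3.57%). No match was found in the 4 windows of the genes that rose. A shorter element, TTCNNNGAA, which reads the same on both strands and is the core bound by STAT dimers, was in 14 of the 61 fallen genes (23%) and in 8.43% of tested genes. Matches of the 2 motifs were counted separately and may overlap. A match is a description of the letters in the window and does not show binding.

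Promoter stretches of 6 fallen genes are given 5′ to 3′ on the strand of the gene, with each match of the GAAA pair, or of its reverse complement, in capitals. They were chosen to show the element in an effector pair (IFIT1, chr10:89392477-89392545, plus strand, and IFIT3, chr10:89327811-89327940, plus strand), in the most abundant effector among them (IFI6, chr1:27672225-27672378, minus strand), in the surface protein tetherin (BST2, chr19:17405641-17405790, minus strand) and in the lambda interferons (IFNL1, chr19:39296163-39296312, and IFNL2, chr19:39268190-39268339, both plus strand).
IFIT1: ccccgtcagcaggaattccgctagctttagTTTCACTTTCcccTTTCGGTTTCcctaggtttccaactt
IFIT3: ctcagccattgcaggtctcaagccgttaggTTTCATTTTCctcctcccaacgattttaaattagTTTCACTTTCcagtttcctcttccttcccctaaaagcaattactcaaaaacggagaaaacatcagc
IFI6: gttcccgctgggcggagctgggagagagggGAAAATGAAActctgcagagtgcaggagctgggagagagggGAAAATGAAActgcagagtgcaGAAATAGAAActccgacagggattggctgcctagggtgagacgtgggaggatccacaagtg
BST2: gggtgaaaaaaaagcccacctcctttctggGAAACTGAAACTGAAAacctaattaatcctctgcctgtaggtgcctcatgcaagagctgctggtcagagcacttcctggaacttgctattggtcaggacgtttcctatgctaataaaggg
IFNL1: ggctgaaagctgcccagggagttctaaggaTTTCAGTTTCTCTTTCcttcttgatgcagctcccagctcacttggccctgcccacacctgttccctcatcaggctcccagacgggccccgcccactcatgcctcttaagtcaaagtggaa
IFNL2: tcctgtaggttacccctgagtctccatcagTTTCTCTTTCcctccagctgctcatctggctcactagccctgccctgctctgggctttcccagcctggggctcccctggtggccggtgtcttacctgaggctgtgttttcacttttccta
IFI6 held 3 matches in its stretch, IFIT1, IFIT3, BST2 and IFNL1 held 2 each, and IFNL2 held 1. IFNL3 (chr19:39245307-39245456, minus strand) had the same 150 bases as IFNL2, which shows how alike these neighbouring copies are.

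Values were TPM, a relative transcript abundance corrected for length, so read depth is unknown. In the 4 libraries between 12259 and 12525 genes reached 1 TPM, and mitochondrial transcripts held between 2.41% and 3.14%. Replicates correlated across tested genes with Pearson's r of 0.9925 in mock and 0.9923 in TAp63. All 9 epithelial markers, keratins and EPCAM among them, were at 1 TPM or more in all 4 libraries, with summed levels of 10895 and 10944 TPM in mock and 10413 and 11411 TPM in TAp63. The leukocyte list summed to between 103 and 131 TPM, nearly all from LYZ, while PTPRC, the pan-leukocyte antigen, stayed at or under 0.0102 TPM. Fibroblast markers summed to between 179 and 236 TPM, mostly LUM, a proteoglycan gene, and COL1A1 stayed at or under 0.383 TPM. The endothelial list stayed at or under 0.487 TPM in sum. In a bulk library, fewer cells expressing a gene and less RNA in each cell cannot be told apart.

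TP63 (ENSG00000073282, chromosome 3, plus strand) was examined first, since it is the gene that was forced. It stood at 1.10 and 0.817 TPM in the mock replicates and at 102 and 170 TPM in the TAp63 replicates. The groups did not overlap, and the level in TAp63 replicate 2 was above that in replicate 1. On the scale of log2(TPM + 1), used for every fold change here, TP63 rose by 6.09 (SE 0.25, limma adjusted p = 7.47e-06). Transcripts that start at the upstream promoter held 65.7 and 101 TPM in the TAp63 libraries, which was 64.3% and 59.8% of the TP63 total. The rest, 36.5 and 68.3 TPM, was assigned to transcripts with the internal start, nearly all of it to ENST00000449992 at 36.5 and 67.9 TPM. The largest upstream-start transcripts were ENST00000440651 at 33.3 and 51.7 TPM and ENST00000392460 at 30.01 and 48.9 TPM. How reads in exons common to both classes were divided is not given in the sources used here, so the internal-start share is a value of the deposited assignment.

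Past an adjusted p of 0.05 in limma stood 94 genes (0.637% of those tested), of which 4 rose (0.0271%) and 90 fell (0.609%). The fallen genes ranged from a log2 change of -2.45 to -0.46, with a median of -0.92, and 49 of them were lower by 2 times or more in TPM. In each of the 90, both TAp63 libraries lay below both mock libraries. That order held in 5230 tested genes (35.4%), and the opposite order in 1654 (11.2%). All 4 risen genes had the opposite order, so a lack of overlap sets no called gene apart from the others. The median change of all tested genes was -0.08. After centring each library on its median, which moved that median by 0.131, 11 genes rose and 63 fell. The model took its estimate of spread from all 12 libraries. The median residual SD in log2 units was 0.153 in AsPC-1 and 0.106 in PANC-1, so that estimate also drew on the less variable line. A model of the 6 AsPC-1 libraries called 1 gene in limma. The median SE of the 90 fallen genes was 0.143 in that model and 0.126 in the 12-library one. A model of the 4 libraries alone called 0 genes in limma, with 1971 at an unadjusted p under 0.05 against 2233 (15.1%) in the 12-library model. TP63 itself did not pass in the 4-library model (limma adjusted p = 0.185). All 90 fallen genes had an unadjusted limma p under 0.05 in it, with adjusted p between 0.185 and 0.352. They were selected with the same libraries, so those unadjusted p-values give no separate support. Leaving out any 1 of the 4 libraries removed some of the 94 calls and added genes from outside them. TP63 and 33 fallen genes, 27 of them in the interferon lists, were past the threshold in each of the 4 fits without 1 library. Among genes named in the comparisons those 33 included SLC15A3, SAMHD1, PNPT1, TRIM69, HLA-B, HLA-C, IFNL2, IFNL3, STAT2, USP18, OAS2, IFIT1, IFIT2, IFIT3, IFITM1, IFITM3, CMPK2, UBE2L6, IFI6, IFI44, MX1, MX2, BST2, RIGI, RSAD2, XAF1 and PARP12. The calls of LMCD1, RND1, NT5DC4, IFNL1, BATF2, ETV7, OAS1, OAS3, OASL, IFIT5, IFITM2, IFI44L, PSMB9, B2M, CSF1, SOD2, TRIM22, HES1, TFAP4, UST-AS2, ENSG00000259952, LY6E, CFB, RNF213 and PLAAT4 were lost in at least 1 of those fits.

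**Figure D1:**
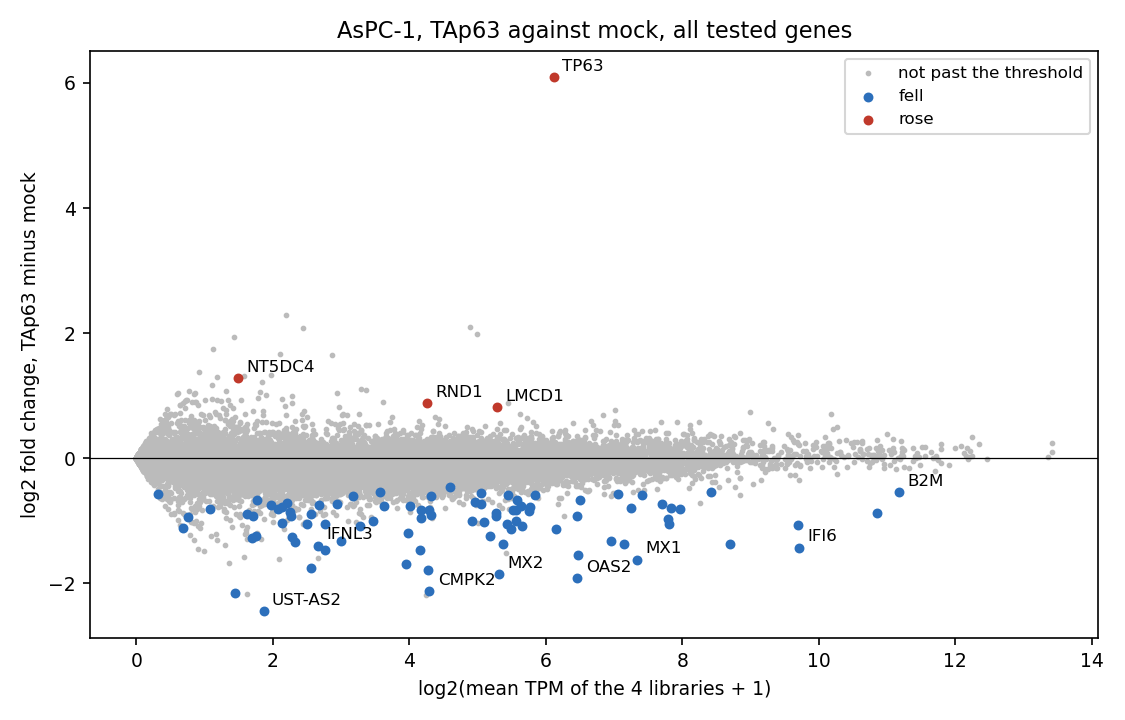
Log2 fold change of TAp63 over mock in AsPC-1 (y axis) against the log2 of the mean TPM of the 4 libraries plus 1 (x axis) for the 14767 tested genes, 1 point per gene. Coloured points are the 94 genes past the threshold, of which 90 lie below 0 and 4 above, and the fallen genes span low to high levels.

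Apart from TP63, 3 genes rose. LMCD1, a LIM-domain protein gene, stood at 25.2 and 29.5 TPM in mock and at 50.9 and 46.7 TPM with TAp63 (log2 change 0.82, SE 0.11, limma adjusted p = 0.0112). RND1, which encodes a small GTPase, stood at 10.9 and 14.2 TPM in mock and at 24.1 and 23.6 TPM with TAp63 (0.89, SE 0.15, limma adjusted p = 0.0323). NT5DC4 stood at 0.601 and 0.670 TPM in mock and at 2.99 and 2.95 TPM with TAp63 (1.28, SE 0.22, limma adjusted p = 0.0361). The groups did not overlap in any of the 3. LMCD1 overlaps its antisense gene, which lies on the other strand, and NT5DC4 overlaps CKAP2L. The library kit was stranded, but whether the quantifier used the strand is not given, so the reads of both genes stay uncertain. The call for LMCD1 was lost without AsPC-1 TAp63 replicate 1 or mock replicate 1 (limma adjusted p = 0.121 in both), that for RND1 without either of these or TAp63 replicate 2 (0.105 to 0.245), and that for NT5DC4 without any 1 of the 4 libraries (0.118 to 0.243). With a pseudocount of 0.1 the calls for NT5DC4 and RND1 were lost (0.118 and 0.0589), as they were with the replicate number as a block (0.0696 and 0.074).

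Among the interferon ligands, the lambda interferons fell together, and the receptors did not pass the test. IFNL2 stood at 10.9 and 13.5 TPM in mock and at 4.95 and 5.39 TPM with TAp63, a log2 change of -1.09 (SE 0.11, limma adjusted p = 0.00241). IFNL3 went from 8.12 and 8.14 TPM to 1.97 and 3.04 TPM (-1.40, limma adjusted p = 0.00377). IFNL1 went from 5.99 and 7.31 TPM to 2.69 and 3.53 TPM (-0.90, limma adjusted p = 0.0227). Each of the 3 was lower in both TAp63 libraries than in either mock library. IFNL2 and IFNL3 are near-identical copies, so the division of reads between them is uncertain. The call for IFNL1 was lost without AsPC-1 TAp63 replicate 1, mock replicate 1 or mock replicate 2 (limma adjusted p = 0.18, 0.0605 and 0.13). IFNB1, the gene of interferon beta, was at 0.90 TPM or below in all 4 libraries and did not pass. Of the 12 tested ligand and receptor genes, 3 fell, against 0.609% of all tested genes, and 0 rose, with a median log2 change of -0.22. The lambda receptor chain IFNLR1 stood at 5.23 and 5.03 TPM in mock and at 4.26 and 6.15 TPM with TAp63, and its groups overlapped. Changes in IL10RB (-0.03), IFNAR1 (-0.25), IFNAR2 (-0.10), JAK1 (0.05) and TYK2 (-0.29) did not pass.

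The transcription factors that carry the interferon signal included 4 that fell among 10 tested, with a median change of -0.58. Of all tested genes, 0.609% fell. STAT2, a subunit of the complex that enters the nucleus, stood at 23.2 and 24.6 TPM in mock and at 12.8 and 13.3 TPM with TAp63 (-0.83, SE 0.10, limma adjusted p = 0.00377). BATF2, a basic leucine zipper factor induced by interferon, went from 20.6 and 24.2 TPM to 4.44 and 8.61 TPM (-1.69, limma adjusted p = 0.011). ETV7, an ETS-family repressor, went from 3.05 and 4.14 TPM to 0.665 and 1.15 TPM (-1.27, limma adjusted p = 0.0273). None of these 3 overlapped between groups. IRF9, the DNA-binding part of the STAT complex, changed by -0.20 and IRF3, which acts upstream of interferon production, by -0.10, and neither passed. IRF1 (-0.45), IRF2 (-0.63) and IRF7 (-0.53) did not pass (limma adjusted p = 0.13, 0.0863 and 0.12). Of 6 tested negative regulators, 1 fell: USP18, the protease that removes ISG15 from proteins and dampens receptor signalling, went from 59.8 and 61.2 TPM to 24.3 and 30.2 TPM (-1.13, limma adjusted p = 0.00376). SOCS1 (-0.48) and SOCS3 (-0.30), feedback inhibitors of the JAK kinases, did not pass.

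The OAS and IFIT families, which sense or bind viral RNA, were listed together with the IFITM membrane proteins. Of the 12 tested members of that list, 11 fell, against 0.609% of all tested genes, and 0 rose, with a median change of -1.06. OAS2, an enzyme that makes oligoadenylates when it meets double-stranded RNA, stood at 137 and 140 TPM in mock and at 30.6 and 41.8 TPM with TAp63 (-1.92, SE 0.17, limma adjusted p = 0.00127). IFIT3 stood at 131 and 131 TPM in mock and at 42.0 and 46.7 TPM with TAp63 (-1.54, SE 0.10, limma adjusted p = 0.000223). IFIT1, which binds viral RNA lacking the host cap methylation, went from 223 and 186 TPM to 73.6 and 82.9 TPM (-1.37, SE 0.10, limma adjusted p = 0.000636). The 3 showed no overlap between groups, and TAp63 replicate 1 was the lower of the pair in each. OAS3 changed by -1.33, OAS1 by -1.06, IFIT2 by -1.06, IFIT5 by -0.82 and OASL by -0.81, all past the threshold. The 11 also included IFITM1 (574 and 621 TPM in mock, 204 and 261 TPM with TAp63) and IFITM2 (-0.80). IFITM3 (1064 and 1185 TPM in mock, then 467 and 610 TPM) was among them as well. The IFITM genes are close copies and IFIT1, IFIT2 and IFIT3 overlap LIPA, and OAS2 and OAS3 overlap ENSG00000257452, so single values are less certain than the shared direction. Summed over the 12 genes of the list, IFITM genes included, the level was 3188 and 3332 TPM in mock. With TAp63 it was 1313 and 1637 TPM, or 54.8% lower by the means.

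Of 59 other antiviral genes tested, 32 fell, against 0.609% of all tested genes, and 0 rose, with a median change of -0.78. CMPK2, a mitochondrial nucleotide kinase, stood at 32.4 and 29.4 TPM in mock and at 6.72 and 5.93 TPM with TAp63 (-2.12, SE 0.20, limma adjusted p = 0.00176). UBE2L6, the enzyme that conjugates ISG15, went from 28.7 and 29.3 TPM to 6.05 and 9.65 TPM (-1.79, limma adjusted p = 0.00127). IFI6, an abundant mitochondrial protein gene, stood at 1243 and 1195 TPM in mock and at 406 and 502 TPM with TAp63 (-1.43, SE 0.13, limma adjusted p = 0.00127). Both TAp63 libraries were below both mock libraries in all 3. The GTPases MX1 and MX2, which block viral replication, fell: MX1 went from 228 and 256 TPM to 64.9 and 92.8 TPM (-1.62, limma adjusted p = 0.00276), and MX2 from 53.7 and 68.0 TPM to 11.8 and 21.5 TPM (-1.86, limma adjusted p = 0.00376). BST2, the tetherin that holds budding virus at the cell surface, went from 281 and 303 TPM to 143 and 153 TPM (-0.98, limma adjusted p = 0.00209). RIGI, a sensor of viral RNA, changed by -1.08, and IFI44L (-1.75), RSAD2 (-1.46) and XAF1 (-1.37) changed further, all past the threshold. CMPK2 (minus strand) and RSAD2 (plus strand) lie next to each other and overlap. The library kit was stranded, but whether the quantifier used the strand is not given. Whether reads in the overlap were divided between them is therefore unknown. ISG20, an exonuclease, changed by 0.03, and LGALS9 by -1.52 without passing (limma adjusted p = 0.0665). PARP12 and IFI44 fell by 0.88 and 1.12 on the log2 scale.

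Over all interferon lists, 51 of 99 tested genes fell, against 0.609% of all tested genes, and 0 rose. Both TAp63 libraries were below both mock libraries in 89, against 35.4% of all tested genes. The summed level was 9968 and 10525 TPM in mock (10246 ± 393, SD, n = 2) and 5380 and 6154 TPM with TAp63 (5767 ± 547, SD, n = 2), which is 43.7% lower. The change was about as large in less and in more abundant members: the 49 genes with the lower mock levels had a median of -0.74 with 22 fallen, and the 50 with the higher levels a median of -0.79 with 29 fallen. Levels with TAp63 were not even between replicates. TAp63 replicate 1 had the lower level in 39 of the 51 fallen interferon genes and in 66 of all 90. Mock replicate 1 also had the lower sum of its pair, and the same order was not counted over all tested genes. These counts therefore do not show that the fall itself differed between replicates.

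**Figure D2:**
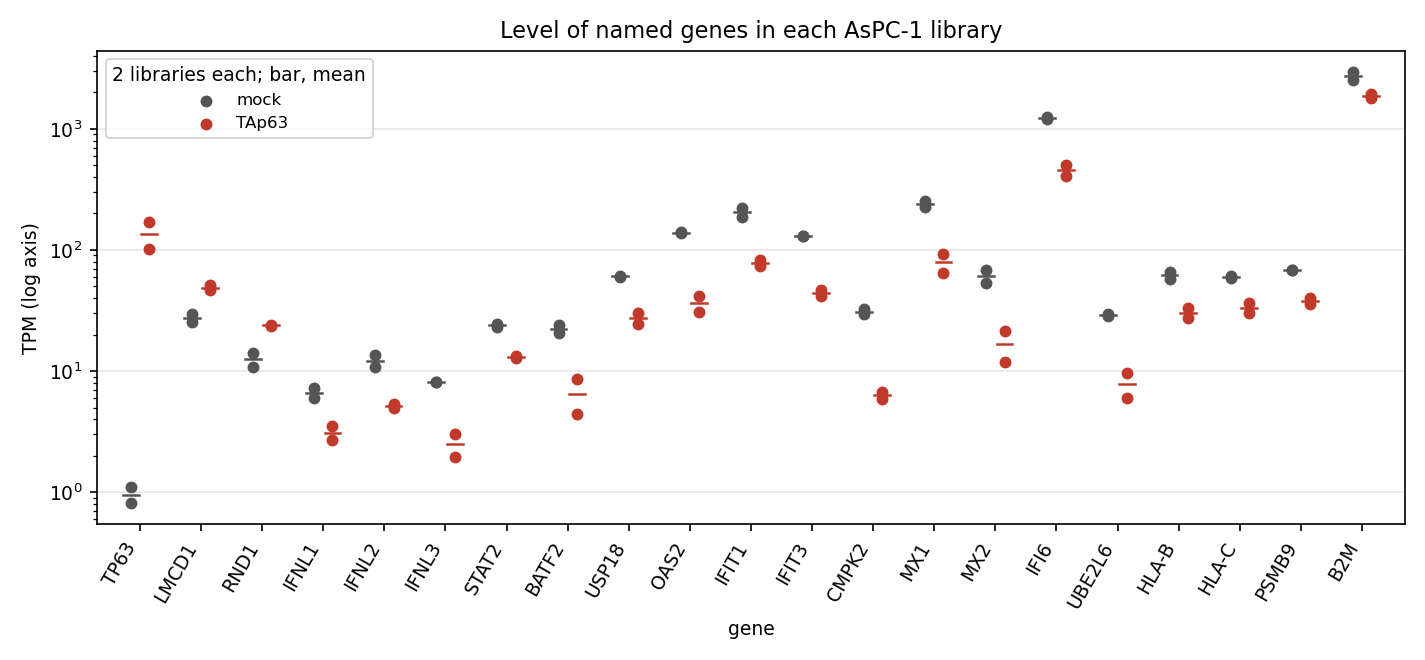
TPM on a log axis (y axis) for 21 named genes (x axis) in AsPC-1, 1 point per library, mock in grey and TAp63 in red, with a short line at each mean. TP63, LMCD1 and RND1 lie higher with TAp63, and for the other genes drawn both TAp63 points lie below both mock points, as for OAS2 at 30.6 and 41.8 TPM against 137 and 140 TPM.

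Genes of the class I antigen presentation pathway, which shows peptides to T cells, fell in part. Of 18 tested, 4 fell, against 0.609% of all tested genes, and 0 rose, with a median of -0.49. All 18 had both TAp63 libraries below both mock libraries, as had 35.4% of all tested genes. HLA-B, a peptide-presenting chain, stood at 57.9 and 66 TPM in mock and at 27.6 and 33.3 TPM with TAp63 (-1.005, SE 0.12, limma adjusted p = 0.00376). HLA-C went from 58.1 and 61.0 TPM to 30.2 and 36.2 TPM (-0.83, limma adjusted p = 0.00365). PSMB9, a subunit of the immunoproteasome, went from 67.9 and 68.0 TPM to 35.6 and 39.8 TPM (-0.84, limma adjusted p = 0.0179). B2M, the light chain common to class I molecules, went from 2925 and 2538 TPM to 1947 and 1798 TPM (-0.54, limma adjusted p = 0.0415), and this call was lost with median centring (0.21) and without any 1 of the libraries (0.0687 to 0.276). The HLA genes are close copies with many alleles, so reads may be divided between them. TAP1 (-0.81) and PSMB8 (-0.73) did not pass (limma adjusted p = 0.0809 and 0.0862). The summed class I level was 4568 and 4243 TPM in mock and 3168 and 3111 TPM with TAp63. Of 6 tested class II genes 0 passed, with CD74 at -0.48 and HLA-DMA at -0.35. None of 14 checkpoint ligand genes passed. CD274, which encodes PD-L1, was at 0.605 TPM or below in all 4 libraries (0.17, limma adjusted p = 0.831), and the butyrophilins BTN3A1 (-0.67) and BTN3A2 (-0.59) had adjusted p of 0.123 and 0.174.

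Among 24 cytokine and chemokine genes, 1 fell, against 0.609% of all tested genes, and 0 rose. CSF1, the growth factor of macrophages, stood at 4.39 and 4.66 TPM in mock and at 1.83 and 2.66 TPM with TAp63 (-0.78, limma adjusted p = 0.0292), a call that was lost with quantile normalization (0.0894) and without AsPC-1 TAp63 replicate 1 (0.173), mock replicate 1 (0.158) or mock replicate 2 (0.138). SOD2, a mitochondrial superoxide dismutase and a known NF-kappaB target, was the 1 of 20 in its list, from 58.6 and 57.1 TPM to 33.7 and 38.5 TPM (-0.67, limma adjusted p = 0.00682). TRIM22, listed as a p53 family target and also known as an antiviral gene, went from 3.29 and 4.12 TPM to 0.644 and 1.39 TPM (-1.24, limma adjusted p = 0.0143), and was the 1 of 38 p53 family targets that fell. In each of these 3 genes the groups did not overlap. HES1, a Notch target, fell by 0.46 on the log2 scale (limma adjusted p = 0.0387), and this call was lost with limma without trend (0.0529), median centring (0.179) and quantile normalization (0.157).

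Another 31 fallen genes stood in no list. SLC15A3, a lysosomal peptide transporter, stood at 8.47 and 9.47 TPM in mock and at 2.34 and 2.85 TPM with TAp63 (-1.48, limma adjusted p = 0.00128). SAMHD1, which hydrolyses the nucleotides that reverse transcription needs, went from 10.4 and 10.4 TPM to 3.20 and 3.98 TPM (-1.32, limma adjusted p = 0.00128). TFAP4, a helix-loop-helix factor known for MYC-driven proliferation, went from 6.52 and 5.84 TPM to 1.54 and 2.18 TPM (-1.34, limma adjusted p = 0.0108). All 3 had no overlap between groups. UST-AS2 (8.45 and 2.14 TPM in mock) and ENSG00000259952 (3.23 and 3.68 TPM) were listed at 0 in both TAp63 libraries (limma adjusted p = 0.0212 and 0.0369), so no fold is given. UST-AS2 lies within UST and ENSG00000259952 overlaps MAZ. LY6E, a surface antigen gene, was among the most abundant, at 2338 and 2414 TPM in mock and 1142 and 1478 TPM with TAp63 (-0.87, limma adjusted p = 0.0342). CFB, the complement factor B gene (43.3 and 55.3 TPM in mock, then 22.03 and 29.0 TPM), the RNA-processing gene PNPT1 (-0.77), RNF213 (-0.77), PLAAT4 (-0.66) and TRIM69 (-0.91) also fell, and these 5 were chosen after their values were seen.

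**Figure D3:**
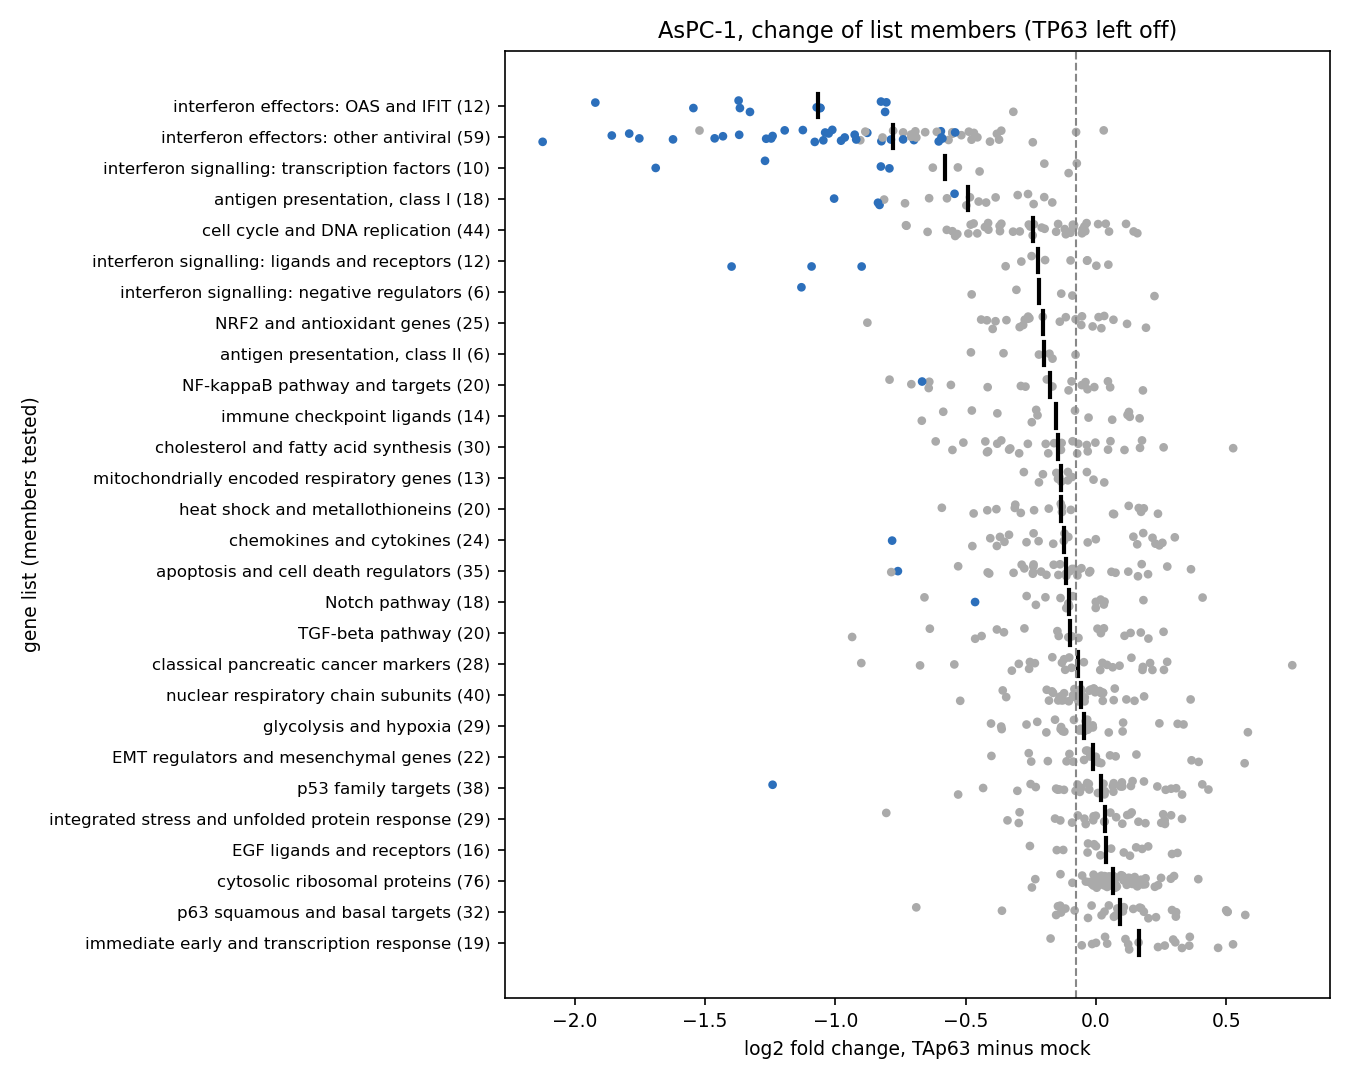
Log2 fold change of TAp63 over mock in AsPC-1 (x axis) for the tested members of each gene list (y axis, number tested in brackets), 1 point per gene, blue for those that fell and grey for those not past the threshold, with a black line at each median, a dashed line at the median of all tested genes and TP63 left off. The OAS and IFIT list, which also holds IFITM genes, stands lowest at -1.06 with 11 of 12 fallen, while the dashed line stands at -0.08.

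The programmes usually tied to p63 did not pass apart from TP63. Of 32 tested squamous and basal targets, 1 rose (TP63) and 0 fell, with a median of 0.09. Another 23 of the 55 genes in that list were below the filter and were not tested. In 12 of the 32, TP63 among them, both TAp63 libraries were above both mock libraries, against 11.2% of all tested genes. In 4 both were below, against 35.4%. S100A2, a calcium-binding protein of basal cells, stood at 38.1 and 51.1 TPM in mock and at 67.2 and 65.2 TPM with TAp63 (0.57, limma adjusted p = 0.382) and LAMB3 changed by 0.50, and neither passed. Both were chosen after their values were seen. In the p53 family list, apart from TRIM22 no target passed. The classical pancreatic cancer list had 0 of 28 past the threshold, with TFF3 at 0.75 (limma adjusted p = 0.191). The EMT (0 of 22), TGF-beta (0 of 20) and EGF (0 of 16) lists had no call either. In EMT the 2 tested members farthest from 0 were SNAI2 (0.57) and ESRP2 (-0.40), in TGF-beta SMAD6 (-0.94) and TGFBR2 (-0.64), and among EGF ligands EREG (0.31) and AREG (0.29).

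Cell cycle and replication genes had a median of -0.24, and 0 passed (smallest limma adjusted p = 0.106, for CCNE2, at -0.73). In 27 of 44 both TAp63 libraries were below both mock libraries, against 35.4% of all tested genes. MCM3 changed by -0.73. Of 76 ribosomal protein genes 0 passed, with a median of 0.07. In 32 of them both TAp63 libraries were above both mock libraries, against 11.2% of all tested genes. Of 19 immediate early genes 0 passed, with a median of 0.16, led by DUSP1 (0.53) and FOSL1 (0.47). No gene passed among 13 mitochondrially encoded (median -0.13), 40 nuclear respiratory (-0.06), 29 glycolysis and hypoxia (-0.05), 30 cholesterol and fatty acid (-0.15), 29 stress-response (0.03), 25 NRF2 (-0.20) and 20 heat shock and metallothionein genes (-0.13). Of their outermost members, GPX2 (-0.88, limma adjusted p = 0.136), SDF2L1 (-0.80, 0.0683), MT1M (-0.59, 0.207) and NDRG1 (0.58, 0.318) did not pass.

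In PANC-1, TAp63 against its own mock gave 1 call of the 14767 genes (0.00677%), TP63. Its level was 324 and 342 TPM in the PANC-1 TAp63 libraries, against 102 and 170 TPM in those of AsPC-1. None of the 90 fallen AsPC-1 genes passed in PANC-1. Their PANC-1 changes ran from -0.32 to 0.21 with a median of -0.01, and 29 of them had both TAp63 libraries below both mock libraries, against 20.4% of all tested genes, and 21 had both above, against 22%. The summed level of the interferon genes was higher in PANC-1 mock than in AsPC-1 mock. The PANC-1 sum was 17202 and 17515 TPM in mock (17358 ± 222, SD, n = 2) and 17975 and 17150 TPM with TAp63. Single genes differed in both directions. OAS1 stood at 140 and 146 TPM in PANC-1 mock, against 315 and 285 TPM in AsPC-1 mock. IFNL1 stood at 778 and 881 TPM in PANC-1 mock and 973 and 899 TPM with TAp63, against under 8 TPM in AsPC-1. The difference between the lines in the TAp63 effect passed in 11 genes (0.0745%), all of them fallen AsPC-1 genes. That number was 0 in limma without trend (1493 genes at an unadjusted p under 0.05), 0 in transcript rows (3107), 3 with quantile normalization, and 1 without AsPC-1 TAp63 replicate 1, mock replicate 1 or mock replicate 2. Without TAp63 replicate 2 it was 23. Since these genes were past the threshold in 1 of the 2 effects compared, their number is a description. In OAS2 the difference was 1.88 (SE 0.24, limma adjusted p = 0.0285), with PANC-1 levels of 146 and 148 TPM in mock and 152 and 133 TPM with TAp63. That call was lost in limma without trend (adjusted p = 0.0795), without a low-value filter (0.0582) and without AsPC-1 TAp63 replicate 1 (0.121), mock replicate 1 (0.128) or mock replicate 2 (0.191).

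**Figure D4:**
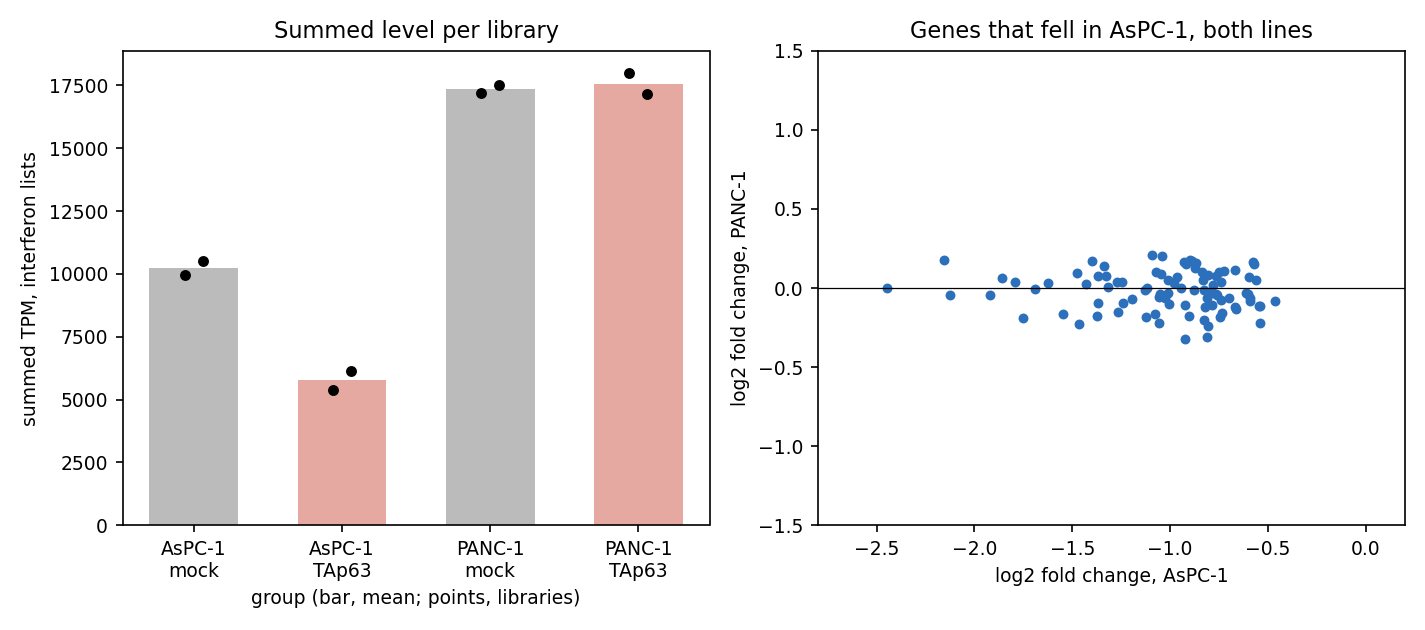
Left, summed TPM of the 99 tested interferon genes (y axis) by group, with bars at the mean and a point for each of 2 libraries; right, log2 fold change of TAp63 over mock in PANC-1 (y axis) against that in AsPC-1 (x axis), 1 point for each of the 90 genes that fell in AsPC-1. The sum was 5380 and 6154 TPM in AsPC-1 TAp63 against 9968 and 10525 TPM in its mock, and the fallen genes spread from -2.45 to -0.46 on the AsPC-1 axis and from -0.32 to 0.21 on the PANC-1 axis.

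DeltaNp63 in AsPC-1 was compared with the same mock libraries, so its values are given beside those of TAp63 with no test of likeness. TP63 stood at 245 and 350 TPM in the deltaNp63 libraries, against 102 and 170 TPM with TAp63. Isoform and TP63 level differed together, so they cannot be told apart. Of the 90 genes that fell with TAp63, 85 also fell past the threshold with deltaNp63, and 72 had a larger fall with deltaNp63. Another 876 genes fell past the threshold with deltaNp63 and were not called with TAp63. The mock libraries common to both comparisons add to such overlap. Examples follow, chosen from genes named above. CMPK2 changed by -2.91 with deltaNp63 and -2.12 with TAp63, OAS2 by -2.71 and -1.92, MX1 by -2.44 and -1.62, and IFIT1 by -1.77 and -1.37. In IFNL3 the values were -1.34 and -1.40.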

How the data were processed

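Transcript abundance was taken from the TPM values the authors deposited, 1 column for each of 12 libraries and 153329 transcript rows. Each column sums to 1000000. Per the labels' protocols, total RNA was purified on columns and libraries were made with a stranded kit for poly(A) mRNA. Neither the quantifier nor the build and annotation it used are given in the sources used here, and TPM keeps no depth, so precision comes from replicates alone.

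Transcripts were assigned to genes with GENCODE 44 (GRCh38), which covered 139819 rows (91.2%), and TPM was summed. The other 13510 rows were left out. Testing was limited to genes that reached 1 TPM in 2 or more of the 12 libraries, as log2(TPM + 1), a scale that understates changes of low genes. One limma 3.58.1 model (eBayes with trend, R 4.3.3) held 6 group means and 6 residual degrees of freedom. P-values are two-sided and Benjamini-Hochberg adjusted over 14767 genes, with a threshold of 0.05. An exact permutation test of 2 libraries against 2 cannot go below 0.333. Scripts used Python 3.11.15 with pandas 2.3.3 and were tested on simulated data. Other settings tried were limma without trend, other filters, a pseudocount of 0.1, quantile normalization, median centring, transcript rows, smaller models, a replicate block, a fold threshold and leaving out each library.

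The members and lists were chosen with earlier results of these data known. Named genes were TP63, all that rose and the 20 largest falls with a mean of at least 1 TPM and no overlap, plus up to 5 passing members of each list by smallest adjusted p, or the 2 with the largest change where none passed. ISG15, CCL5, MUC5AC, ACACA and PECAM1 were not matched by symbol. Results for some other members are not reported here. Lists covered interferon signalling and effectors, antigen presentation, checkpoints, cytokines, NF-kappaB, p53 and p63 targets, subtype, pathway, metabolic and stress genes, and cell type markers.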

Additional observations from a re-analysis of the deposited data

Results flagged for a closer look

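The effect of TAp63 differed between PANC-1 and AsPC-1, by the interaction term of the 12-library limma model, in 11 genes. The difference, PANC-1 minus AsPC-1 in log2 units, was 2.08 for CMPK2 (adjusted p = 0.0431), 1.88 for OAS2, 1.83 for UBE2L6, 1.57 for SLC15A3, 1.46 for IFI6, 1.38 for IFIT3, 1.33 for SAMHD1, 1.3 for IFNL2, 1.2 for IFIT1, 1.01 for BST2 (adjusted p = 0.0392) and 0.865 for PARP12. The other 9 had an adjusted p of 0.0285. In all 11 the AsPC-1 change was below 0, and none passed the threshold in PANC-1. The count was 0 in limma without trend, with 1493 genes at an unadjusted p under 0.05, and 0 in the transcript rows, with 3107.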

How the results depend on the processing

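The main counts were 94 genes past the threshold, 4 risen, 90 fallen, 51 fallen interferon genes, a median change of -0.0765 over all genes and 11 genes that differed between cell lines. A model of the 4 libraries compared gave 0 genes in each direction and 0 interferon falls, and one of the 6 AsPC-1 libraries gave 1 gene, risen (RNU4ATAC), with 0 falls and 0 interferon falls. Transcript rows gave 45 calls, 39 falls, 25 interferon falls, a median of -0.0496 and 0 differences between lines. Requiring an absolute log2 change of at least 1 left 42 calls, 2 risen, 40 fallen and 31 interferon falls. Without trend 8 genes rose and 0 differed between lines. Median centring gave 11 rises and a median of 0.0547, a shift of 0.131. Quantile normalization gave a median of 0 and 3 differences between lines. Without a filter 18 genes rose, the median was -0.00627 and 37 genes differed between lines, and a mean of at least 5 TPM gave 30 such genes. With 1 AsPC-1 library left out, where the lone library is assumed to vary like the other groups, calls ranged from 42 to 83, rises from 1 to 5, falls from 40 to 79, interferon falls from 29 to 42 and differences between lines from 1 to 23. GCLC, at -0.44, ranged from -1.38 to 0.504 with 1 library left out, the highest without AsPC-1 TAp63 replicate 1 (limma adjusted p = 0.816), and the cause was not tested. Differences between same-numbered replicates in AsPC-1 mock and TAp63 had a correlation of 0.0991 across genes. With 2 pairs, that value cannot decide whether the replicates were paired. The replicate block gave 84 calls, 81 fallen, 51 of them interferon genes. It had 2529 genes at an unadjusted limma p under 0.05, against 2233 without the block. Depth is unknown, so it sets no stated limit.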

Other observations

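Some genes of the ISG15 conjugation cycle were among those that fell. They were picked after their values were seen, so they give no count for the cycle, and ISG15 itself was not matched by symbol. The activating enzyme UBA7 stood at 5.52 and 5.14 TPM in AsPC-1 mock and at 2.41 and 2.28 TPM with TAp63 (limma adjusted p = 0.0136). The conjugating enzyme UBE2L6, described above, fell with the ligase HERC5, at 19.8 and 21.9 TPM in mock and 7.59 and 9.59 TPM with TAp63 (limma adjusted p = 0.00276), and its relative HERC6 (-1.25). The protease USP18 fell as well. The death ligand TNFSF10, which encodes TRAIL, stood at 6.05 and 5.64 TPM in mock and at 1.73 and 1.96 TPM with TAp63 (-1.27, limma adjusted p = 0.004). PARP9 (-0.82), its partner DTX3L (-0.74) and PARP14 (-0.70) fell. HERC5 and PARP9 kept their call in each fit without 1 library, and UBA7, HERC6, TNFSF10, DTX3L and PARP14 lost it in at least 1.

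Some genes changed by over 1.5 log2 units without passing the test. DHX37, an RNA helicase gene, changed by -1.59 (limma adjusted p = 0.0698), and SLX1B by 1.98 (0.43). SLX1B has a near-identical copy, so the assignment of its reads is uncertain. RNU4ATAC, the gene of a minor spliceosome RNA within CLASP1, was listed at 0 in both mock libraries and at 2.48 and 2.22 TPM with TAp63. It did not pass in the 12-library model (limma adjusted p = 0.263) and did in the model of the 6 AsPC-1 libraries (0.0227).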
